A study of Mus musculus with 10 samples.

Results

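Macrophages grown from mouse bone marrow were sorted by whether they had engulfed apoptotic fibroblasts, and polyA RNA of 2 libraries with uptake (Eff+) was compared with 2 libraries without (Eff-). These 4 libraries were chosen by their titles and their raw count columns, and they are 4 of the 10 libraries of the series. The other 6 came from macrophages of day 3 skin wounds in LysMCreER/mTmG mice given tamoxifen, 3 Eff+ and 3 Eff-, and serve here for comparison only. Per the labels, the cultured cells were of wild-type genotype and were grown from bone marrow monocytes for 7 days in GM-CSF, the granulocyte-macrophage colony stimulating factor. All 4 libraries are labelled as treated with apoptotic fibroblasts, for 12 h, before the sort. The column names of the Eff- libraries contain the letters NOAC, and the labels do not settle whether these cells were ever exposed to apoptotic fibroblasts. No label gives the sex or age of the mice, or says that the replicates came from separate animals or cultures. A p-value here therefore measures only the spread between these libraries, which may be technical.

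Efferocytosis is the clearance of apoptotic cells by phagocytes. Receptors such as Mertk and Axl bind phosphatidylserine on the dying cell, directly or through bridging proteins such as Mfge8 and Gas6, the corpse is digested in lysosomes, and its cholesterol is exported through transporters such as Abca1. Bone marrow cultures in GM-CSF are a mixture: they hold macrophage-like cells and cells that resemble dendritic cells, which carry MHC class II and, once mature, the migration receptor Ccr7.

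The 4 libraries were deep but unlike in composition. Total counts ranged from 17622740 to 27261880. Olfactory and vomeronasal receptor genes, which macrophages are not known to use, had 6496 and 18258 counts in Eff+ 1 and Eff- 1 against 239 and 116 in Eff+ 2 and Eff- 2. Genes with at least 1 count numbered 35649 and 44836 in the replicate 1 libraries and 19649 and 18171 in the replicate 2 libraries. Gm10800, a predicted gene, had 68717 and 229125 counts in replicate 1 and 33 and 27 in replicate 2. Eff- 1 stood furthest apart: 46.3% of genes differed at least 2-fold between Eff- 1 and Eff- 2, 19.2% between the Eff+ libraries and 8.5% between Eff+ 2 and Eff- 2. The 2 libraries of 1 group did not agree within sampling noise in either group.

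All 9 markers chosen for macrophages had counts in all 4 libraries, but so did all 7 chosen for fibroblasts. Adgre1, which encodes F4/80, was at 494 and 843 CPM (read counts scaled to library size) in Eff+ and 298 and 1061 in Eff-, replicate 1 given first here and below. Lyz2, which encodes lysozyme M, was at 13606 and 54671 CPM in Eff+ and at 3086 and 70844 in Eff-. Both genes overlapped between the sorted groups and were lower in replicate 1. The summed level of 8 dendritic cell markers was 44.5 and 18.2 CPM in Eff+ and 227 and 65.0 in Eff-. Ccr7, described below, was the largest part of that sum in both Eff- libraries. It held 6.66 and 0.54 CPM of it in Eff+ and 96.7 and 41.3 in Eff-. The summed level of 7 fibroblast markers was 4.17 and 157 in Eff+ and 9.71 and 32.0 in Eff-. T, NK and B cell markers summed to at most 2.01 CPM and keratinocyte markers to at most 4.45 CPM, both in Eff- 1. In bulk RNA, fewer cells of a type and less RNA per cell cannot be told apart.

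**Figure D1:**
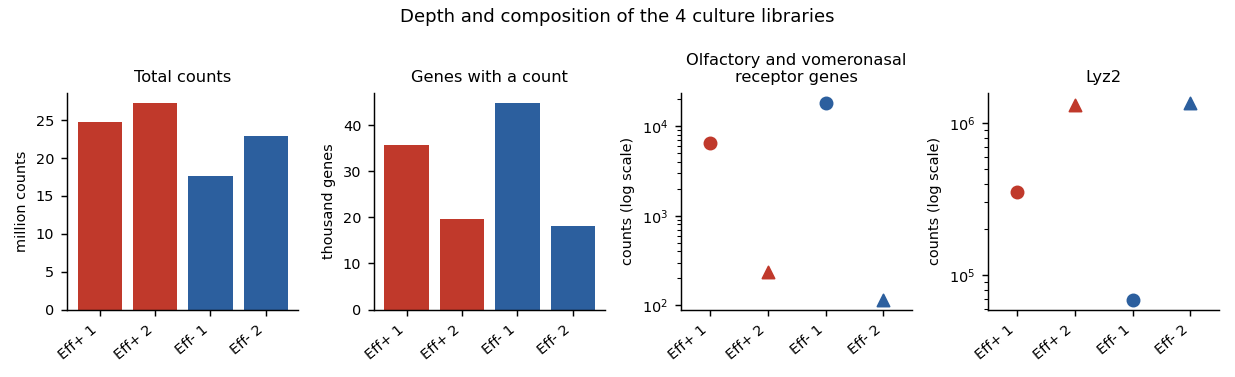
Total counts, genes with at least 1 count, counts in olfactory and vomeronasal receptor genes and counts of Lyz2 (both on log axes) for each culture library; bars and points are single libraries, red for Eff+ and blue for Eff-. Both replicate 1 libraries have more receptor gene counts (6496 and 18258) than the replicate 2 libraries (239 and 116), and Eff- 1 has the fewest Lyz2 counts, 68753.

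The first question was which transcripts differed between cells that had and had not engulfed apoptotic cells in culture. The edgeR quasi-likelihood test called none of 14867 genes (0% at an adjusted p under 0.05, with a smallest adjusted p of 1.0, and 115 genes at an unadjusted p under 0.05). DESeq2 called 2, Cacnb3 and Il1b, and limma-voom none. No gene below is therefore reported as changed, and each is given by its level in the 4 libraries. As a description of how far the groups stood apart, 1681 genes (11.3%) were higher in both Eff+ libraries than in both Eff- libraries, and 1400 (9.42%) were lower in both. A gap of at least 2-fold between the nearest libraries of the groups, after adding 0.5 CPM to each, was seen for 23 genes (0.155%) with the higher levels in Eff+ and for 58 (0.39%) with the lower levels in Eff+. Without Eff+ 1 all genes that the edgeR test called were lower in Eff+. They included predicted genes such as Gm10722, Gm10718 and Gm10717 (log2 fold changes -13.45, -14.65 and -10.32). Without Eff- 2 the edgeR test called genes in both directions, and no gene was in both sets. Without Eff+ 2 or Eff- 1 it called none, with 51 and 765 genes at an unadjusted p under 0.05.

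At the lower end, Il1b, the gene of interleukin 1 beta, had the smallest p and was at 7.78 and 6.06 CPM in Eff+ and 42.9 and 45.5 in Eff- (log2 fold change -2.67, SE 0.40). Trem1, an amplifying receptor of myeloid inflammation, was at 27.6 and 22.9 CPM in Eff+ and 99.1 and 67.4 in Eff-. Jaml, a junctional adhesion protein of leukocytes, was at 13.3 and 14.4 CPM in Eff+ and 71.3 and 47.3 in Eff-. For these genes the 2 libraries of a group lay close together, which a choice by smallest p favours. Bmf, a BH3-only promoter of apoptosis, was at 4.66 and 5.32 CPM in Eff+ and 17.6 and 18.1 in Eff-. Spn, which encodes the sialoglycoprotein CD43, was at 4.93 and 7.48 CPM in Eff+ and 29.1 and 19.1 in Eff-. Aldh1a2, a retinoic acid synthesising enzyme of some dendritic cells, was at 0.96 and 1.45 CPM in Eff+ and 7.41 and 6.70 in Eff-. The other lower genes of smallest p were Ccl5, Cacnb3, Btg2, Fam129a, Clu and Ighm, and in all 12 the groups were at least 2-fold apart.

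At the higher end, S1pr1, a receptor for sphingosine 1-phosphate, was at 38.1 and 47.8 CPM in Eff+ and 8.03 and 15.1 in Eff- (log2 fold change 1.89, SE 0.49). Il7r, the interleukin 7 receptor chain, was at 176 and 201 CPM in Eff+ and 37.4 and 79.8 in Eff-. Cd276, which encodes the B7 family member B7-H3, was at 7.66 and 4.57 CPM in Eff+ and 1.08 and 1.19 in Eff-. Each of these 3 had both Eff+ libraries at least 2-fold above both Eff- libraries. Met, the receptor for hepatocyte growth factor, was at 117 and 69.9 CPM in Eff+ and 40.9 and 27.6 in Eff-. Serpinb2, a plasminogen activator inhibitor, was at 129 and 243 CPM in Eff+ and 35.4 and 68.2 in Eff-. Kitl, the ligand of Kit, was at 4.50 and 10.01 CPM in Eff+ and 1.03 and 1.56 in Eff-. Sphk1, a kinase that makes sphingosine 1-phosphate, was also among the 23 genes at least 2-fold apart, at 11.6 and 11.3 CPM in Eff+ and 1.44 and 5.30 in Eff-; it was singled out after its values were seen. Other higher genes of smallest p were Lyzl4, Flrt2, Trmt10c, Rcn1 and Prmt7.

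**Figure D2:**
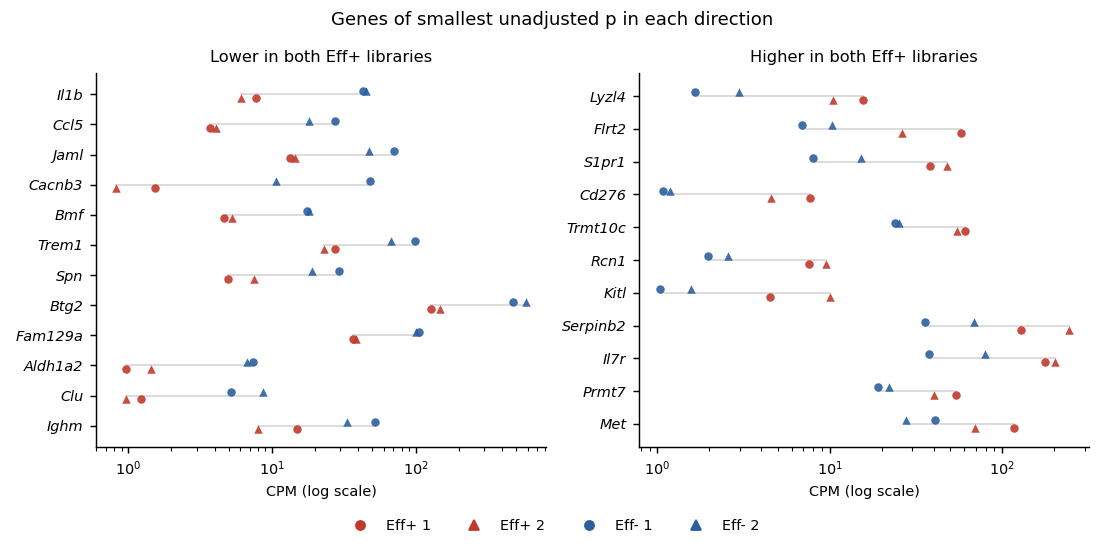
Level of genes among the 12 of smallest unadjusted p in each direction, as CPM on a log axis; each point is 1 library, red for Eff+ and blue for Eff-, with circles for replicate 1 and triangles for replicate 2. Only genes without overlap between the groups were eligible, so in every gene both Eff+ points lie on the same side of both Eff- points. Cacnb3 spans the widest range, from 0.83 to 48.0 CPM.

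Most, but not all, members of the list of mature, migrating dendritic cells had lower levels in Eff+. Of 27 tested members, 17 were lower in both Eff+ libraries and 1 was higher, against 9.42% and 11.3% of all genes tested, and 9 were at least 2-fold lower and none at least 2-fold higher, against 0.39% and 0.155% of all genes tested. The median log2 fold change of the list was -1.35, against -0.05 for all genes tested. The summed share of counts of the list was not lower in Eff+, at 0.246% and 0.295% in Eff+ and 0.207% and 0.292% in Eff-. Without Eff- 1 the median was -0.78, and without Eff+ 1 it was -1.46, where the medians of all genes were 0.09 and -0.21. Ccr7 (ENSMUSG00000037944, chromosome 11, 99035022 to 99045903, GRCm39), the receptor that guides mature dendritic cells to lymph nodes, was at 6.66 and 0.54 CPM in Eff+ and 96.7 and 41.3 in Eff- (log2 fold change -4.26, SE 1.29). Ccl22, a T cell attracting chemokine, was at 19.0 and 2.20 CPM in Eff+ and 221 and 124 in Eff- (-4.03, SE 1.14). Ccl17, which signals through the same receptor as Ccl22, was at 3.85 and 2.99 CPM in Eff+ and 9.20 and 18.8 in Eff-. Ccr7 and Ccl22 were higher in replicate 1 than in replicate 2 within both groups, and the gap between Eff+ and Eff- was present within each replicate number.

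Structural and signalling members of the same list had the same order of groups. Fscn1, the actin bundling protein of dendrites, was at 1.73 and 7.52 CPM in Eff+ and 75.4 and 18.6 in Eff-. Cacnb3, a calcium channel subunit, was at 1.54 and 0.83 CPM in Eff+ and 48.0 and 10.7 in Eff-. Tnfrsf9, which encodes the costimulatory receptor 4-1BB, was at 3.77 and 1.37 CPM in Eff+ and 19.3 and 10.5 in Eff-. For all 3 the Eff- libraries were the higher pair. Apol7c, an apolipoprotein L family member of dendritic cells, was at 0.35 and 1.58 CPM in Eff+ and 15.0 and 6.44 in Eff-. Cd83, a maturation marker, had less separated groups, at 42.4 and 21.9 CPM in Eff+ and 118 and 45.5 in Eff-. Cd200, an inhibitory ligand, was the only member whose levels were higher in both Eff+ libraries, at 32.1 and 19.7 CPM against 5.25 and 12.0 in Eff-.

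Markers of dendritic cells in general did not share 1 order. Zbtb46, a transcription factor of conventional dendritic cells, was at 9.74 and 2.49 CPM in Eff+ and 67.2 and 4.78 in Eff-. Flt3, their growth factor receptor, was too low to be tested, with 9 and 0 counts in Eff+ and 79 and 3 in Eff-. Both were highest in Eff- 1, and in replicate 2 they were low in either group. Of 20 tested members of the general dendritic cell list 3 were lower in both Eff+ libraries (9.42% of all genes) and none was at least 2-fold apart, and its median was -0.97, and -0.12 without Eff- 1. Irf4, a transcription factor of conventional dendritic cells, was at 6.70 and 3.57 CPM in Eff+ and 29.1 and 6.96 in Eff-. Batf3, a factor of cross-presenting dendritic cells, had the opposite order within each replicate number, at 17.9 and 7.43 CPM in Eff+ and 11.2 and 5.66 in Eff-. Clec9a, a receptor of the same cells, was at 0.81 and 3.57 CPM in Eff+ and 0.67 and 3.9 in Eff-, with little difference between the groups. The share that dendritic cells in the Eff- libraries had in the Ccr7 and Ccl22 values was not tested.

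MHC class II genes, which present peptides to CD4 T cells, had the lower median level in Eff+ within both replicate numbers (-0.73 and -1.10), but for most members the groups overlapped. Of 16 tested members 6 were lower in both Eff+ libraries and none was higher in both, against 9.42% and 11.3% of all genes. The list had a median log2 fold change of -0.86, with -0.45 without Eff- 1 and -1.20 without Eff+ 1. H2-Ab1, the beta chain of I-A, was at 1394 and 364 CPM in Eff+ and 3566 and 920 in Eff-. H2-Aa, its alpha chain, was at 589 and 202 CPM in Eff+ and 1067 and 510 in Eff-. H2-Eb1, the beta chain of I-E, was at 171 and 88.3 CPM in Eff+ and 320 and 246 in Eff-. For H2-Ab1 and H2-Aa the level in Eff+ 1 was above that in Eff- 2, so the groups overlapped, while for H2-Eb1 they did not. Cd74, the invariant chain that escorts class II to the endosome, was at 5141 and 3332 CPM in Eff+ and 7787 and 6109 in Eff-. Ciita, the master activator of class II transcription, was at 32.9 and 6.35 CPM in Eff+ and 168 and 19.8 in Eff- (log2 fold change -2.26, SE 1.27), and its log2 fold change was 0.02 without Eff- 1.

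Costimulatory and checkpoint ligands showed no common order. Their median over 13 tested genes was -0.30. Cd86, a ligand of CD28, was at 51.1 and 63.3 CPM in Eff+ and 81.3 and 73.2 in Eff-, and Pdcd1lg2, which encodes PD-L2, was at 6.43 and 3.95 in Eff+ and 16.5 and 9.51 in Eff-. Cd276, given above, had the opposite order. Cd274, which encodes PD-L1, overlapped between the groups.

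**Figure D3:**
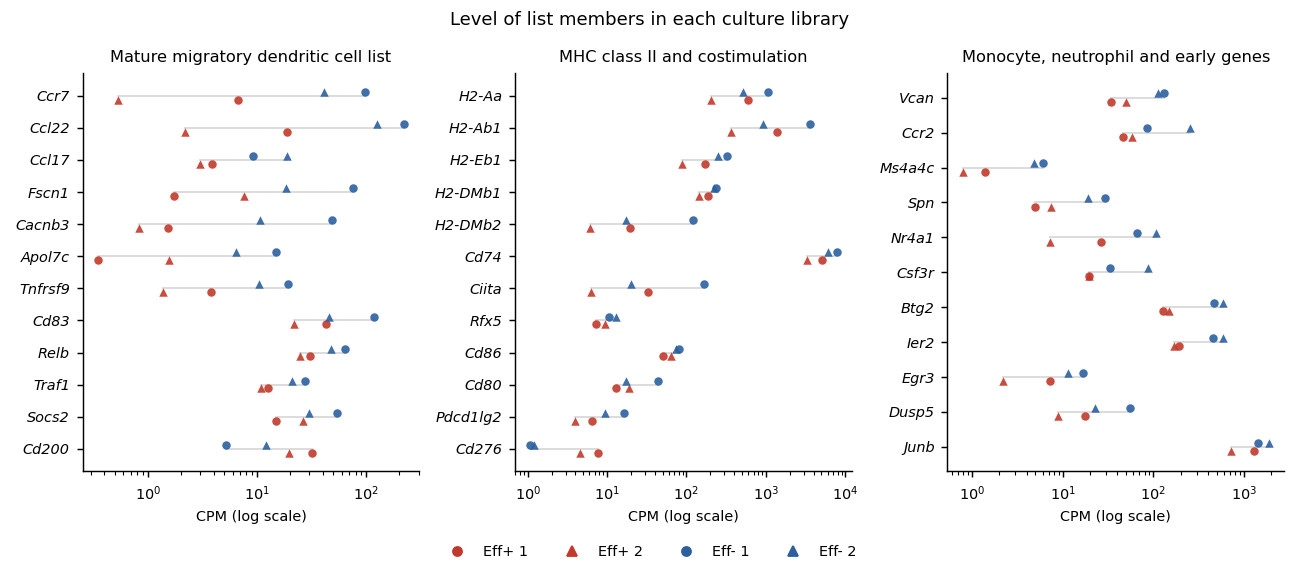
Level in CPM, on log axes, of members of the migratory dendritic cell list, of MHC class II and costimulation genes, and of monocyte, neutrophil and immediate early genes; each point is 1 library, red for Eff+ and blue for Eff-, with circles for replicate 1 and triangles for replicate 2. The Eff- points lie to the right of the Eff+ points for Ccr7, Ccl22, Vcan and Btg2, H2-Aa, H2-Ab1, H2-DMb2, Ciita and Cd80 overlap, and Cd200 and Cd276 have the opposite order.

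Of 17 tested monocyte genes 11 were lower in both Eff+ libraries (9.42% of all genes) and 5 of them at least 2-fold (0.39% of all genes), and the median was -1.44 (-1.50 without Eff- 1 and -0.53 without Eff- 2). Vcan, a matrix proteoglycan of classical monocytes, was at 33.8 and 49.8 CPM in Eff+ and 133 and 112 in Eff- (log2 fold change -1.55, SE 0.43). Ccr2, the receptor of Ccl2, was at 45.8 and 58.6 CPM in Eff+ and 86.0 and 257 in Eff-. For Ccr2, Eff- 1 lay nearer to the Eff+ libraries than to Eff- 2. Ly6c2, the classical monocyte surface marker, was at 23.7 and 1.33 CPM in Eff+ and 31.3 and 26.3 in Eff-.

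Of 15 tested neutrophil genes 8 were lower in both Eff+ libraries and none was higher in both (9.42% and 11.3% of all genes), with a median of -1.62 that ranged from -5.19 without Eff+ 1 to -0.90 without Eff+ 2. The other 9 members were too low to be tested. The summed share of counts of the list was 0.182% and 0.277% in Eff+ and 0.17% and 0.31% in Eff-, so the order of the groups differed between replicate numbers. Csf3r, the receptor of granulocyte colony stimulating factor, was at 19.7 and 19.4 CPM in Eff+ and 33.5 and 87.0 in Eff-. Ngp, a granule protein, had no count in Eff+ 2 and was at 6.54 CPM in Eff+ 1 and 13.8 and 13.7 in Eff-. Ly6g, which defines neutrophils, had 4 and 0 counts in Eff+ and 6 and 2 in Eff-, and S100a8 overlapped between the groups.

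Immediate early genes, which growth factors and stress induce within minutes through CREB and serum response factor, included some with lower levels in Eff+. Of 26 tested members 9 were lower in both Eff+ libraries and none was higher in both (9.42% and 11.3% of all genes), and 3 were at least 2-fold lower (0.39%). The median was -0.79 over the 4 libraries, -0.03 within replicate 1 and -1.11 within replicate 2, and 0.40 without Eff- 2. Promoter stretches with a match to a CREB or serum response factor motif are shown for the 2 list members with the first motif and for 1 member with the other. Sequences are RefSeq promoters of build GRCm38.p6, in the direction of the gene, and only the 250 bases before the start site were searched, on both strands. Capitals mark the cyclic AMP response element TGACGTCA in the first 2 and the first of 2 CArG boxes, the serum response factor motif, in the third.
Btg2, chr1:134079284-134079351, minus strand: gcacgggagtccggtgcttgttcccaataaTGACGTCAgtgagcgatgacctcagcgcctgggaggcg
Dusp1, chr17:26508578-26508645, minus strand: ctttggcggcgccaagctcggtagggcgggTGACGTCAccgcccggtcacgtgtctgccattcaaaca
Dusp5, chr19:53529033-53529102, plus strand: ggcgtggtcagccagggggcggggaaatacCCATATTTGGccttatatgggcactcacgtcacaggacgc
Btg2, an antiproliferative gene, was at 129 and 149 CPM in Eff+ and 473 and 584 in Eff- (log2 fold change -1.93, SE 0.49). Dusp1, a MAP kinase phosphatase, was at 933 and 1470 CPM in Eff+ and 391 and 2612 in Eff-, with full overlap. Dusp5, another such phosphatase, was at 17.5 and 8.81 CPM in Eff+ and 55.4 and 22.8 in Eff-. The element was present in 2 of 22 promoters of this list and 478 of all 27025 promoters (1.77%), and a CArG box in 3 of 22 (Dusp5, Egr2 and Zfp36) and 439 of all (1.62%).

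Other members of that list had the lower levels in Eff+ as well. Ier2 was at 194 and 169 CPM in Eff+ and 455 and 592 in Eff-. Nr4a1, an orphan nuclear receptor that also marks patrolling monocytes, was at 26.2 and 7.23 CPM in Eff+ and 65.6 and 106.2 in Eff- (log2 fold change -2.36, SE 0.74). Btg1, a relative of Btg2, was at 633 and 514 CPM in Eff+ and 1633 and 1009 in Eff-. In contrast Fos and Jun overlapped, with Fos at 362 and 929 CPM in Eff+ and 335 and 2080 in Eff-, so that both replicate 2 libraries were above both replicate 1 libraries.

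Subunits and feedback genes of NF-kB, the transcription factor family behind many inflammatory genes, had a median log2 fold change of -0.52 over 16 tested members, with 5 lower and 1 higher in both Eff+ libraries (9.42% and 11.3% of all genes). Relb, a subunit of the noncanonical pathway and of dendritic cell maturation, was at 30.5 and 24.6 CPM in Eff+ and 64.3 and 47.2 in Eff-. Traf1, an adaptor, was at 12.6 and 10.97 CPM in Eff+ and 27.4 and 20.8 in Eff-. Nfkb1 was at 39.3 and 28.2 CPM in Eff+ and 89.7 and 45.8 in Eff-, and Nfkb2 at 62.3 and 64.0 in Eff+ and 73.2 and 117 in Eff-. These 4 had both Eff+ libraries below both Eff- libraries. Rel was at 166 and 39.6 CPM in Eff+ and 617 and 42.0 in Eff-, higher in replicate 1 within both groups and overlapping between them. An NF-kB motif, GGG, any 2 bases and TTTCC on either strand, was present in 5 of 13 promoters of the list (Cyld, Nfkb2, Nfkbia, Rel and Tnfaip3), in 2 of 21 of the migratory dendritic cell list (Eno2 and Tnfrsf9) and in 447 of all 27025 (1.65%). The matches, in capitals, are shown for the 2 genes whose groups did not overlap, with the same source as above.
Nfkb2, chr19:46304696-46304736, plus strand: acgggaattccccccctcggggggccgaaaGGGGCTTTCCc
Tnfrsf9, chr4:150927926-150927995, plus strand: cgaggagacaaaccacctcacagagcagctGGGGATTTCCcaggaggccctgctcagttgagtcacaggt
Among genes with the motif whose groups overlapped, Nfkbia, the inhibitor that NF-kB itself induces, was at 241 and 218 CPM in Eff+ and 205 and 346 in Eff-. Tnfaip3, which encodes A20, was at 266 and 48.9 CPM in Eff+ and 237 and 63.3 in Eff-.

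The list of inflammatory cytokine and enzyme genes had a median of -0.64 (-0.30 within replicate 1 and -0.52 within replicate 2). Of 20 tested members 9 were lower and 3 higher within both replicate numbers, against 3490 and 3433 of all 14867 genes. In both Eff+ libraries 4 were lower and 2 higher than in both Eff- libraries (9.42% and 11.3% of all genes). Tnf was at 36.9 and 28.9 CPM in Eff+ and 41.1 and 35.5 in Eff-, and Il1a, the sister gene of Il1b, at 55.0 and 81.3 in Eff+ and 22.4 and 102 in Eff-. Il1rn, the antagonist of both interleukins, had the opposite order, at 641 and 752 CPM in Eff+ and 83.0 and 462 in Eff- (log2 fold change 1.36, SE 0.91). Nlrp3, the inflammasome sensor, was at 65.0 and 42.5 CPM in Eff+ and 88.6 and 72.5 in Eff-. Of 31 interferon-stimulated genes 6 were lower in both and none higher (9.42% and 11.3% of all genes), among them Mx1, an antiviral GTPase, at 2.81 and 2.08 CPM in Eff+ and 12.7 and 5.51 in Eff-. The median of the interferon list was -0.26.

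Most chemokines overlapped between the groups, and the median of 20 tested was 0.12. Of these 20, 3 were at least 2-fold lower in Eff+ (Ccl5, Ccl17 and Ccl22) and 1 at least 2-fold higher (Ccl2). Of all genes tested, 0.39% were at least 2-fold lower and 0.155% at least 2-fold higher. Ccl5, a chemokine for T cells, was at 3.70 and 4.11 CPM in Eff+ and 27.5 and 18.1 in Eff-. Ccl2, which recruits monocytes through Ccr2, was at 1346 and 1160 CPM in Eff+ and 421 and 479 in Eff- (log2 fold change 1.48, SE 0.56). Ccl7, a second ligand of Ccr2, was at 346 and 584 CPM in Eff+ and 12.8 and 213 in Eff- (2.04, SE 1.30). The Ccl2 levels were alike within each group, while those of Ccl7 in Eff- differed many times over. Cxcl2, which attracts neutrophils, overlapped between groups, at 396 and 303 CPM in Eff+ and 268 and 517 in Eff-.

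Genes of lipid uptake and export had members with the higher levels in Eff+. Cd36 (ENSMUSG00000002944, chromosome 5, 17986688 to 18093799, GRCm39), a scavenger receptor for oxidised lipids and apoptotic cells, was at 1394 and 1801 CPM in Eff+ and 357 and 549 in Eff- (log2 fold change 1.82, SE 0.63). Lpl, a lipase, was at 1790 and 1903 CPM in Eff+ and 455 and 971 in Eff-. Abca1, the cholesterol exporter, was at 67.8 and 82.4 CPM in Eff+ and 17.0 and 44.7 in Eff-. All 3 had both Eff+ libraries above both Eff- libraries. Plin2, a coat protein of lipid droplets, was at 1856 and 1188 CPM in Eff+ and 444 and 1128 in Eff-, so that Eff- 2 was close to Eff+ 2. The lists as wholes showed no common order: the lipid uptake and storage list had a median of 0.01 over 21 tested genes, with 3 higher and 3 lower in both Eff+ libraries (11.3% and 9.42% of all genes), and the LXR target list a median of -0.12 over 20. Dgat1, which makes triglyceride, was at 41.9 and 52.6 CPM in Eff+ and 104 and 78.0 in Eff-. Abcg1 overlapped, at 1109 and 678 CPM in Eff+ and 1375 and 717 in Eff-. Apoe followed the replicate number, at 322 and 7416 CPM in Eff+ and 103 and 7427 in Eff-.

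Sterol synthesis genes gave a median of -0.29 over 21 tested genes, with 3 lower in both Eff+ libraries and none higher (9.42% and 11.3% of all genes). Insig1, which holds back sterol synthesis when cholesterol is plentiful, was at 33.9 and 40.9 CPM in Eff+ and 77.2 and 59.2 in Eff-.

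Receptors and bridging proteins for apoptotic cells mostly overlapped between the groups. Of 30 tested, 4 were higher in both Eff+ libraries (Cd36, Itgav, Itgb3 and Stab1) and 2 lower in both (Axl and Thbs1), against 11.3% and 9.42% of all genes. Mertk was at 32.6 and 60.1 CPM in Eff+ and 10.6 and 66.4 in Eff-. Axl was at 373 and 453 CPM in Eff+ and 457 and 725 in Eff-. Mfge8 was at 295 and 658 CPM in Eff+ and 83.8 and 316 in Eff-. Mertk and Mfge8 thus overlapped, with the lowest level in Eff- 1, while the Axl levels of the groups nearly met. Itgb3, the partner of Itgav in the vitronectin receptor, was at 10.7 and 3.28 CPM in Eff+ and 2.87 and 1.77 in Eff-. Stab1 was at 191 and 129 CPM in Eff+ and 113 and 105 in Eff-. The median of the list was 0.29, but -0.05 without Eff- 1.

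Lysosome genes, which digest the engulfed corpse, differed by replicate number. The median of 41 tested members was 1.34 within replicate 1 and -0.15 within replicate 2, and -0.28 without Eff- 1. Ctsb, a cathepsin, was at 12100 and 17639 CPM in Eff+ and 1898 and 13305 in Eff-, and Ctsd at 4426 and 7328 in Eff+ and 734 and 7222 in Eff-. The low library was Eff- 1 in both. The nuclear respiratory chain genes (median 1.02 within replicate 1 and -0.06 within replicate 2), the ribosomal protein genes (0.86 and -0.06) and the macrophage identity genes (1.05 and -0.18) had the same form. Eff- 1 also had the most olfactory receptor counts, and the part of its composition in these lists was not tested.

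**Figure D4:**
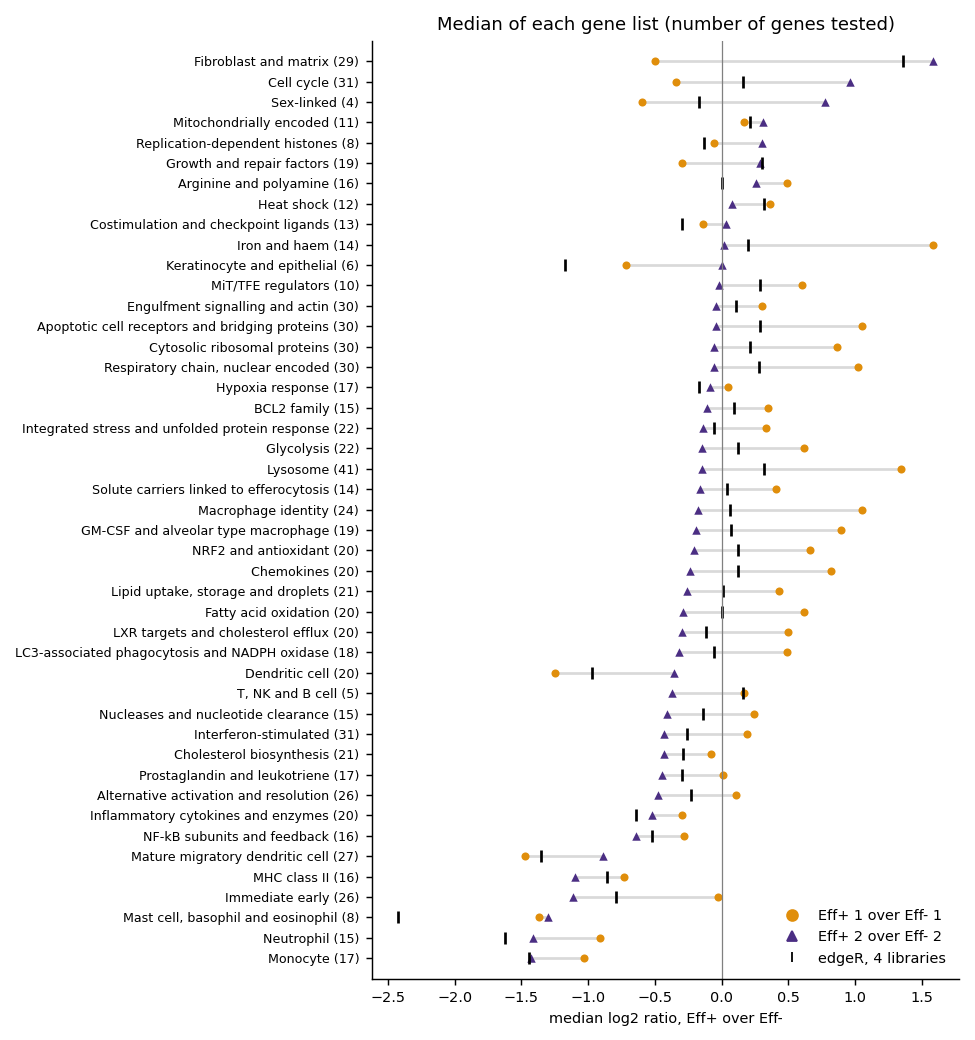
Median log2 ratio of Eff+ over Eff- for each gene list, with the number of genes tested in brackets; circles are replicate 1, triangles replicate 2 (both after adding 0.5 CPM) and bars the edgeR fold change over 4 libraries. Monocyte, neutrophil, MHC class II and migratory dendritic cell lists lie below 0 by all 3 measures. So do others, among them the lists of mast cells, basophils and eosinophils, of dendritic cells in general, and of NF-kB. Lysosome, iron and macrophage identity lists are well above 0 in replicate 1 only.

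Haem and iron genes had 4 of 14 tested members higher in both Eff+ libraries and none lower (11.3% and 9.42% of all genes), with a median of 0.20 (1.58 within replicate 1 and 0.02 within replicate 2). Hmox1, which breaks down haem, was at 977 and 813 CPM in Eff+ and 131 and 516 in Eff- (log2 fold change 1.47, SE 0.81). Slc40a1, which encodes the iron exporter ferroportin, was at 750 and 573 CPM in Eff+ and 263 and 345 in Eff-. Slc48a1, a haem transporter of the phagolysosome, was at 1053 and 782 CPM in Eff+ and 334 and 606 in Eff-. For all 3 Eff- 1 was the lowest and Eff+ 1 the highest library. The ferritin gene Fth1 followed the replicate number, at 9231 and 32043 CPM in Eff+ and 1501 and 37002 in Eff-.

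The list of stress response genes showed no common order, and its chaperones of the endoplasmic reticulum (ER) were singled out after their values were seen. In the unfolded protein response such chaperones are induced through the ER stress response element, CCAAT and CCACG separated by 9 bases. Of 22 tested members of the stress list 7 were higher in both Eff+ libraries and 4 lower (11.3% and 9.42% of all genes), with a median of -0.06. The element, searched on both strands, was found in 3 of 21 promoters of the list and in 35 of all 27025 (0.13%), and the 3 are printed because they belong to the chaperone genes described here. Capitals mark the element, in Hsp90b1 the first of 2.
Hspa5, chr2:34771995-34772073, plus strand: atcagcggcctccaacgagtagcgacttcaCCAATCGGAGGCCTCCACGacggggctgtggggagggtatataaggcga
Hsp90b1, chr10:86705608-86705686, minus strand: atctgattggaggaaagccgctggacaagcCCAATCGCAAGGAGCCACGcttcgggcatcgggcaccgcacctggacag
Pdia6, chr12:17266461-17266539, plus strand: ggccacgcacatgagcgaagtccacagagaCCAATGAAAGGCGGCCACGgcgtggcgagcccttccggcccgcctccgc
Hspa5, which encodes BiP, was at 4483 and 2715 CPM in Eff+ and 2240 and 1774 in Eff-. Hsp90b1, which encodes GRP94, was at 973 and 854 CPM in Eff+ and 486 and 419 in Eff- (log2 fold change 1.01, SE 0.54). Pdia6, a disulfide isomerase, was at 837 and 730 CPM in Eff+ and 410 and 487 in Eff-. These 3 genes of the stress list had both Eff+ libraries above both Eff- libraries. Calr, a member of the apoptotic cell receptor list, also had the element, and its groups overlapped. Pdia4, another isomerase, was at 368 and 359 CPM in Eff+ and 163 and 180 in Eff- (1.09, SE 0.45), and these letters were not in its window. Herpud1, an ER degradation gene, had the opposite order, at 192 and 154 CPM in Eff+ and 387 and 246 in Eff-. Atf4, which leads the integrated stress response, was at 52.7 and 42.4 CPM in Eff+ and 55.1 and 61.2 in Eff-, and Ddit3, its target, overlapped.

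Several growth and repair factors had the higher levels in Eff+, but their list showed no common order. Its median was 0.30, with -0.30 within replicate 1 and 0.29 within replicate 2. Hbegf, a ligand of the epidermal growth factor receptor, was at 5.04 and 7.60 CPM in Eff+ and 0.72 and 2.03 in Eff-. Pdgfa, a growth factor for fibroblasts, was at 24.2 and 12.9 CPM in Eff+ and 7.18 and 7.84 in Eff-. Inhba, a subunit of activin A, was at 12.6 and 55.4 CPM in Eff+ and 9.20 and 10.1 in Eff-. Of 19 tested members 4 were higher in both Eff+ libraries and 2 lower in both (11.3% and 9.42% of all genes), one of which was Thbs1, at 810 and 731 CPM in Eff+ and 1234 and 1450 in Eff-. Igf1 and Tgfb1 overlapped. Of the arginine and polyamine genes, Srm, which encodes spermidine synthase, was at 113 and 98.1 CPM in Eff+ and 45.02 and 57.6 in Eff-, and Arg1, which encodes arginase 1, at 9.16 and 7.64 in Eff+ and 1.89 and 6.03 in Eff-. The median of that list was 0.

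**Figure D5:**
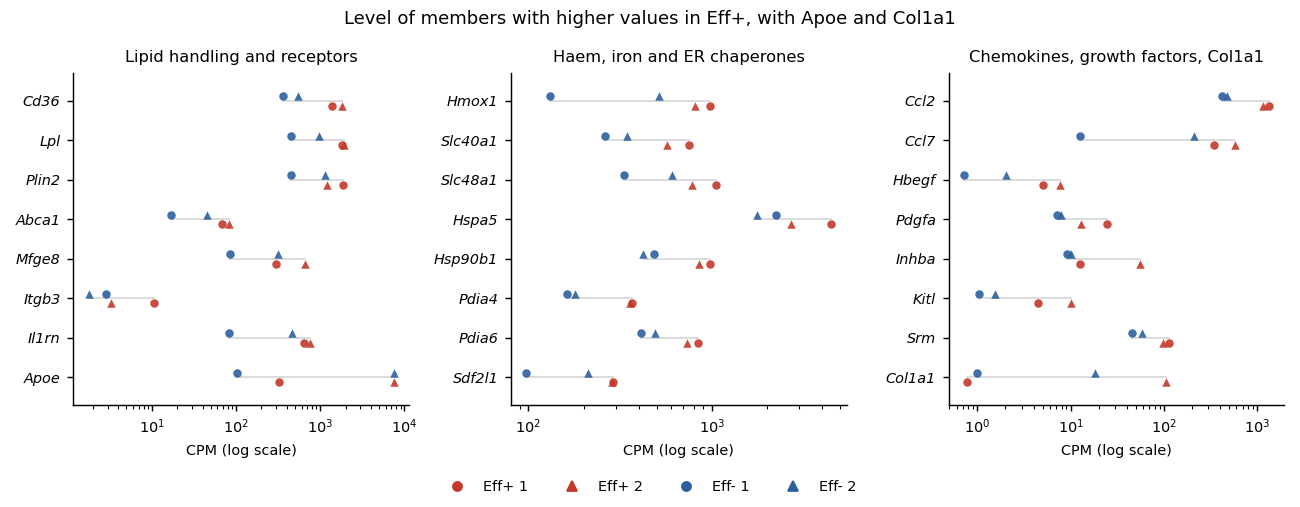
Level in CPM, on log axes, of genes of lipid handling, haem, iron, ER chaperones, chemokines and growth factors; each point is 1 library, red for Eff+ and blue for Eff-, with circles for replicate 1 and triangles for replicate 2. Apart from Apoe and Col1a1, genes were chosen for higher values in Eff+, so the order of the points follows from that choice. Both Eff+ points lie to the right of both Eff- points for all genes shown except Mfge8, Apoe and Col1a1, which overlap. Genes of the same kinds with another order, such as Dgat1, Ccl22 and Thbs1, are not shown.

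Alternative activation and cell cycle genes showed no common order between the groups. Of 26 alternative activation genes 2 were higher and 5 lower in both Eff+ libraries (11.3% and 9.42% of all genes), with Mrc1 at 127 and 590 CPM in Eff+ and 25.0 and 403 in Eff-. Il10 was at most 1.75 CPM in any library. Of 31 cell cycle genes 5 were higher and 2 lower in both, against the same shares of all genes (11.3% and 9.42%). The median of the cell cycle list was -0.34 within replicate 1 and 0.96 within replicate 2. Mki67 was at 80.1 and 115 CPM in Eff+ and 111 and 33.2 in Eff-. Its levels overlapped between the groups.

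Some fibroblast genes differed most by replicate number. Col1a1, a collagen chain, was at 0.77 and 104 CPM in Eff+ and 0.99 and 18.3 in Eff-. Col1a2 was at 0.81 and 42.2 CPM in Eff+ and 2.20 and 9.45 in Eff-. Sparc, a matrix protein, was at 0.27 and 50.7 CPM in Eff+ and 0.63 and 10.3 in Eff-. These 3 transcripts were at most 2.20 CPM in replicate 1 and higher in both libraries of replicate 2, with Eff+ 2 above Eff- 2. Other fibroblast markers did not have this order: Dcn, a matrix proteoglycan, was at 1.12 and 2.41 CPM in Eff+ and 1.62 and 0.31 in Eff-, and Pdgfra, a growth factor receptor, at 0.19 and 1.33 in Eff+ and 1.71 and 1.77 in Eff-. The list had a median of -0.50 within replicate 1 and 1.58 within replicate 2. Of 29 tested members none was higher and 1 was lower in both Eff+ libraries (11.3% and 9.42% of all genes). The target cells given to the cultures were fibroblasts, and whether the transcripts came from engulfed, attached or living fibroblasts was not tested.

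The same contrast in wound macrophages gave other values, with the opposite direction for some genes and the same direction for others. Vcan had a log2 fold change of -1.55 in culture and -0.97 in wounds, H2-Eb1 of -1.13 and -1.10, and Il1rn of 1.36 in both. The 4 genes given next were picked for their opposite directions and do not stand for the other named genes. Il1b had a log2 fold change of -2.67 (SE 0.40) in culture and 1.25 in wounds (edgeR, adjusted p = 0.0151), with 8402, 8593 and 7922 CPM in the Eff+ wound libraries and 3488, 2799 and 4212 in the Eff- wound libraries. Trem1 was at -1.72 in culture and 2.00 in wounds (adjusted p = 0.0103), Jaml at -2.10 and 2.30 (0.0285) and Btg2 at -1.93 and 1.65 (0.0221). In wounds 1666 of 14908 genes were called (11.2%), but none without the wound library Eff+ 2, 189 without Eff- 2, 451 without Eff- 1, 820 without Eff+ 3 and 901 without Eff- 3. Without Eff+ 2 the edgeR adjusted p of these 4 genes was 0.0643 to 0.0965, and without Eff- 2 Trem1 alone of the 4 passed (0.0424). Il1b did not pass without the wound library Eff- 1 (0.0611), nor Jaml without Eff+ 1 (0.0504). Jaml and Btg2 did not pass without Eff- 3 (0.0824 and 0.0622). The difference between the contrasts of culture and wound had an adjusted p of 0.10 for each of the 4, and the edgeR test of that difference called none of 20270 genes (0%, with 2222 at an unadjusted p under 0.05), while DESeq2 called 797. Without the culture library Eff- 2 the edgeR test of the difference called 2009 genes, without Eff+ 1 it called 7 and without Eff- 1 it called 4. Of the 23 genes at least 2-fold higher in cultured Eff+, 21 were tested in wounds, 19 of them with negative values (median -0.78). Of the 58 lower, 52 were tested, 29 with positive values (median 0.15). The share of all genes with negative or positive values in wounds was not counted, so no background stands beside these numbers. Cd36 was at 1.82 in culture and -1.01 in wounds, and Ccl2 at 1.48 and -0.75, both without passing the test in either. Ccr7 and Ccl22 were at -0.44 and -0.46 in wounds, where Ccl22 did not exceed 2.23 CPM in any library.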

How the data were processed

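The authors deposited unnormalised counts of reads for each gene, 1 column per sample. Trimmomatic 0.39 and the GRCm39 genome are named in the submitters' processing notes. For the culture table, the aligner and counting options (strand too) are not given in the sources here, so reads of overlapping and antisense genes cannot be told apart. The wound table was counted with featureCounts 1.6.0 on Ensembl release 106, per the file headers, and its coordinates were used. In the culture table, 4 further columns could not be tied to a sample and were left out. GENCODE vM21 named 52081 of 55414 identifiers, with 99.92% of the culture counts.

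The 4 culture libraries were fitted without the wounds, using edgeR 4.0.16 (R 4.3.3) with TMM scaling, the filterByExpr filter, dispersions estimated from the counts and a quasi-likelihood test of the sorted groups, with Benjamini-Hochberg adjustment over 14867 genes. CPM are on TMM-scaled library sizes. Each SE was derived from the fold change and the square root of the test's F statistic. Ratios within a replicate number had 0.5 CPM added. The difference from the wounds was tested in a fit of all 10 libraries.

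Genes named are the 12 of smallest p in each direction reaching 5 CPM on average in the higher group without overlapping libraries (predicted and RIKEN models left out), up to 4 members of each of 45 lists (913 genes) in each direction by the same rule, and 28 fixed genes. Other list members are named where a list needs contrast and were chosen after their values were seen. A few of these genes are left out of the text. The comparison, lists and rule were chosen with earlier results of these data known. The procedure was tested on simulated counts. Alternatives were other scalings, DESeq2 1.42.0, limma-voom (limma 3.58.1), other filters, newer settings of the quasi-likelihood test, a replicate block, all 10 libraries in 1 fit, and each library left out; with a library left out, 1 group is a single library assumed to vary like the other. A filter on genes at 10 times the level of olfactory receptor genes was chosen after seeing the data.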

Additional observations from a re-analysis of the deposited data

How the results depend on the processing

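The count of culture genes called was 0 with every scaling, with limma-voom, with newer quasi-likelihood settings, with a filter of 5 CPM, with protein-coding genes only, over all 10 libraries and with the olfactory receptor filter. It was 2 with DESeq2 (Cacnb3 and Il1b), 2 with no filter (Cacnb3 and Ccr7), and 0 to 27 with a library left out. With a replicate block it was 48, 9 higher and 39 lower, of which 13 were also called without Eff+ 1 and 6 without Eff- 2. No label pairs the numbers or says what same-numbered libraries share, and there are only 2 pairs. Same-numbered libraries deviated together from their group means (correlation 0.74 across genes). Between them 21.8% (replicate 1) and 8.5% (replicate 2) of genes differed at least 2-fold. Between the libraries of 1 group these shares were 19.2% (Eff+) and 46.3% (Eff-). The main test did not take the replicate number into account. For the difference between culture and wound, 0 genes became 797 with DESeq2, 517 with no filter, 44 with a filter of 5 CPM, 441 with the replicate block and 0 to 2009 with a culture library left out. The cause of these changes was not tested.

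Of 2535 values of 159 named genes under these alternatives, 2469 kept their direction without a call, 22 kept it with a call and 44, in 23 genes, had the opposite direction. With no filter the log2 fold changes of opposite direction were 0.03 for Ern1, 0.11 for Abcg1, 0.19 for Il10, 0.04 for Tgfb1, 0.05 for Tnf and 0.08 for Adgre1. With limma-voom they were 0.18 for Adgre1 and 0.84 for Lyz2, and with the replicate block 0.20 and 0.88. With each library left out in turn the log2 fold change ranged from -0.78 to 0.15 for Axl, -0.46 to 0.12 for Arl4c, -0.52 to 0.05 for Nr1h2, -0.33 to 0.19 for Pfkfb3, -0.34 to 0.19 for Sod2, -0.42 to 0.08 for Atf4, -0.27 to 0.20 for Ern1 and -0.89 to 0.22 for Samhd1. It ranged from -0.48 to 2.42 for Mertk, -0.55 to 3.15 for Trem2, -0.59 to 0.35 for Abcg1, -3.57 to 5.53 for Apoe, -0.30 to 3.13 for Nr1h3, -0.76 to 4.14 for Mrc1, -1.24 to 0.71 for Il10, -0.59 to 0.17 for Tgfb1 and -0.37 to 0.07 for Tnf. The range was -3.85 to 0.02 for Ciita, -0.63 to 1.46 for Adgre1, -1.09 to 1.41 for Csf1r, -1.46 to 3.77 for Lyz2, -3.65 to 6.03 for Col1a1 and -1.17 to 0.44 for S100a8.

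The median log2 fold change of all genes was -0.05 with TMM scaling and -0.17 with library totals only. The common dispersion was 0.485, and 0.14 with the replicate block. Depth limits genes such as Ly6g, with at most 6 counts in a library.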
